A study of Bos taurus with 3 samples.

Results

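bta-miR-132 and bta-miR-212 are the members of a small activity-regulated miRNA cluster, and both were read in small RNA libraries of purified large dense-core vesicles. They were found by name, 2 of the 793 mature miRNAs in the deposited count table. The pair had been picked from among the miRNAs on their values in these same libraries, which were known to be lower in the biological replicate than in the technical replicates. All their levels and fold changes are therefore given as a description, with no test of the pair, and intervals beside them cover counting error alone.

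Large dense-core vesicles, the organelles that store catecholamines and peptides, were purified from chromaffin cells of the bovine adrenal medulla, and their total RNA was sequenced as small RNA. The source was cows from local slaughter, and the labels give no age, breed, genotype or treatment. There were 3 libraries, technical replicates 1 and 2 (T1 and T2) and 1 biological replicate (B1), and the labels do not say which step the technical pair repeats or how many animals each preparation pooled. The technical pair was counted as 1 preparation, so that a mean ± SD is over n = 2 preparations. T1, T2 and B1 held 5546771, 6251664 and 6708654 counts, and a count of 0 (taken to allow 3 counts) set a limit of at most 0.541 CPM, the count scaled to a common total of mature miRNA counts. The endocrine markers miR-375 and miR-7, taken for the labelled cell type, together stood between 428375 and 473000 CPM. Whole chromaffin cells are not analysed here, so no value speaks to enrichment in the vesicle, and fewer vesicles or cells of a kind and less of a miRNA in each cannot be told apart.

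miRNAs are short RNAs, cut from hairpins of longer transcripts, that guide the silencing of mRNAs. miR-132 and miR-212 are known to be made from 1 shared transcript that the transcription factor CREB switches on in neurons after synaptic activity or growth factors. Their best-known products share a seed, the stretch that pairs with targets, and miR-132 is known for promoting the growth of dendrites. Outside the nervous system, miR-132 is known from growth-factor-stimulated endothelium and, together with miR-146a and miR-155, from monocytes exposed to endotoxin.

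In the count table each of the pair had a single row. miR-132 (MIMAT0003812) was assigned to the hairpin bta-mir-132 (MI0005028), and miR-212 (MIMAT0009264) to the hairpin bta-mir-212 (MI0009776). Neither name states the arm of the hairpin, and the table lists 1 mature product for each, as it does for 701 of its 808 hairpins. No other miRNA had the same counts as either. In RefSeq's annotation of the assembly ARS-UCD2.0, which is not the build of the deposited files (UMD3.1), both hairpin genes lie on chromosome 19. MIR132 and MIR212 are next to each other there with no gene annotated between them. OVCA2 and DPH1 lie on the MIR132 side, and HIC1 and SMG6, which encode a transcriptional repressor and an RNA decay factor, on the MIR212 side.

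miR-132 was among the more abundant miRNAs of the vesicle preparations. It had 14660 counts in T1, 17684 in T2 and 7498 in B1. These equal 2643 CPM (exact 95% interval 2600 to 2686, from the Clopper-Pearson method), 2829 CPM (2787 to 2871) and 1118 CPM (1093 to 1143). B1 was the lowest of the 3, the difference on which the pair was picked, and even the intervals of T1 and T2 did not overlap. Reads without molecular identifiers are not independent molecules, so such an interval is a lower limit of the error. By level miR-132 ranked 38th, 37th and 57th of 793 in the 3 libraries in that order. The mean was 1927 ± 1144 CPM (SD, n = 2 preparations), or 0.193% ± 0.114 of all miRNA counts.

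miR-212 was far scarcer. It had 305, 376 and 221 counts in T1, T2 and B1, or 55.0 CPM (exact 95% interval 49.0 to 61.5), 60.1 CPM (54.2 to 66.5) and 32.9 CPM (28.7 to 37.6). B1 was the lowest here too, which is again the difference on which the pair was picked. miR-212 ranked 193rd, 191st and 205th, and its mean was 45.3 ± 17.4 CPM (SD, n = 2 preparations). The least of these counts, 221, was far above the 3 counts that a count of 0 allows.

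**Figure D1:**
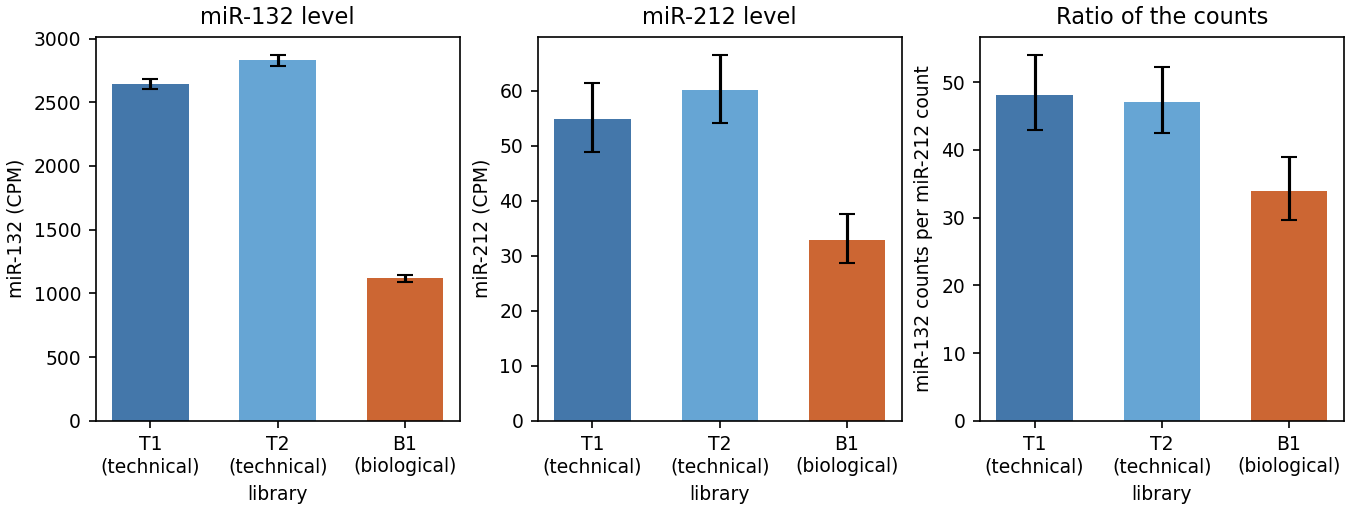
Levels of miR-132 (left) and miR-212 (middle) in CPM, and the number of miR-132 counts per miR-212 count (right), in each of the 3 libraries. Bars are single libraries and error bars are exact 95% intervals for counting error; in all 3 panels B1 is the lowest, at 1118 CPM, 32.9 CPM and a ratio of 33.9.

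The technical replicates show how far the values repeat, a difference that played no part in picking the pair. miR-132 was 0.10 log2 units higher in T2 than in T1 (exact 95% interval 0.07 to 0.13). That is a small difference, but it is beyond counting error. miR-212 was 0.13 log2 units higher in the same direction, with an interval of -0.09 to 0.35 that includes 0. A difference between the technical replicates was thus not detectable for miR-212 at its depth.

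Both miRNAs were lower in B1, and miR-132 by more. The level of miR-132 there was 40.9% of the technical mean, and that of miR-212 was 57.2%. Against T1 and T2 in turn, the log2 ratios of CPM were -1.24 and -1.34 for miR-132 and -0.74 and -0.87 for miR-212. The widest counting interval of these, that of miR-212 against T1, ran from -0.996 to -0.485. These are the values on which the pair was picked, and with 1 biological library the spread between preparations is not known.

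On the scale of the model fitted to all miRNAs (edgeR with TMM factors, which correct for differences in composition), the log2 fold change of B1 over T1 and T2 was -1.11 ± 0.10 (SE) for miR-132 and -0.62 ± 0.16 (SE) for miR-212. TMM moved fold changes up by a median of 0.18 against library totals, and the median over the 367 miRNAs tested was 0.01. Of these, 19 had a more negative fold change than miR-132 and 49 a more negative one than miR-212. Among the 45 miRNAs with a mean level of at least that of miR-132, itself included, none was more negative than miR-132. That cut is set by miR-132 itself, and miR-146b, just past it at place 49 with 1547 CPM, had -1.39. Of the 167 miRNAs that averaged 100 CPM or more, 3 had a more negative fold change than miR-132.

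Calls for other miRNAs come from edgeR's quasi-likelihood test at an adjusted p of 0.05. The test called 37.9% of the 367 miRNAs tested, 20.2% as lower in B1. Both miR-132 and miR-212 are in that 20.2%, and nothing is read from this, since they were picked on the same contrast. The split of all calls was 65 higher and 74 lower, and 24 higher and 86 lower with library totals. The spread in this test comes from the technical pair alone, with 1 residual degree of freedom, so calls compare these libraries and not animals.

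**Figure D2:**
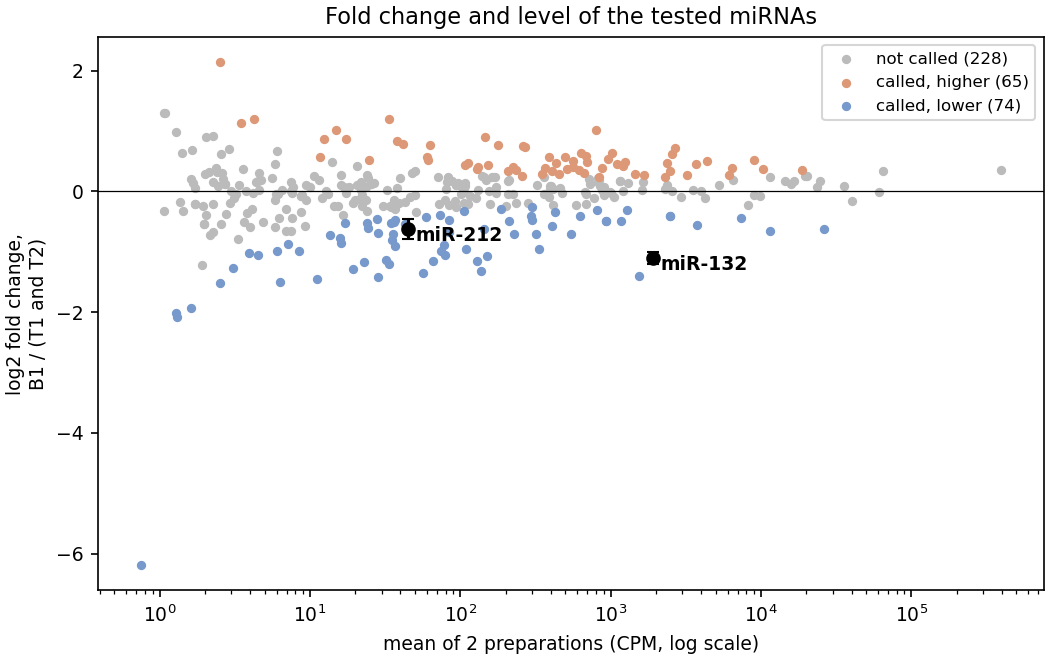
Log2 fold change of B1 over T1 and T2 (edgeR, TMM) against the mean level in CPM (log axis) for the 367 miRNAs tested, coloured by call. Black points with SE bars are miR-132, at -1.11 and 1927 CPM, and miR-212, at -0.62 and 45.3 CPM. The miRNAs to the right of miR-132 all lie above it, while miR-146b, a little to its left at 1547 CPM, lies below it at -1.39.

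The balance within the cluster was also lower in B1. For each count of miR-212 there were 48.1 counts of miR-132 in T1 (exact 95% interval 42.9 to 54.0), 47.0 in T2 (42.5 to 52.2) and 33.9 in B1 (29.7 to 39.0). The technical replicates had nearly the same ratio, with a log2 difference of -0.03 (exact conditional 95% interval -0.26 to 0.19). The log2 difference of B1 was -0.50 (-0.76 to -0.24) against T1 and -0.47 (-0.72 to -0.22) against T2. Depth and scaling cancel in this ratio, because both counts come from the same library. It is a ratio of reads and not of molecules, since adapters are known to ligate to different small RNAs with different efficiency, and CPM are not divided by length. The mean ratio was 40.7 ± 9.63 (SD, n = 2 preparations).

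In the order of levels, miR-132 stood at place 45 of 793 by its mean. Just above it were miR-92a, miR-154c and miR-26b, at 2373, 2305 and 2292 CPM. Just below were miR-191, let-7c and miR-374b, at 1658, 1642 and 1624 CPM. All 6 means lay within 1 SD of that of miR-132, so its place in the order is not fixed by these data. In T1 and T2 miR-132 was above all 6, and in B1 it was below all 6.

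miR-212 stood at place 199, between miR-2285e, miR-181b and miR-19a above, at 50.04, 48.0 and 46.6 CPM, and miR-378c, miR-380-5p and miR-2285i below, at 42.9, 42.9 and 41.8 CPM. These 6 also lay within 1 SD of it, an SD of the same kind. In B1 miR-378c was the only one of the 6 below miR-212, at 32.3 CPM.

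The nearest other hairpins annotated on the chromosome were looked up for comparison. On the MIR132 side these were MIR22 and MIR3600, and on the MIR212 side MIR2337 and MIR12041. The hairpin of MIR12041 has no row in the count table, so no value can be given for it. miR-22-3p, a broadly expressed miRNA, had 672, 673 and 508 CPM in T1, T2 and B1. Its log2 fold change of -0.22 ± 0.10 (SE) did not pass the edgeR test, though it passed with library totals (-0.40) and in the fit of miRNAs averaging 100 CPM or more (-0.37). miR-22-5p had 89.8, 85.4 and 58.7 CPM and was called lower, with a log2 fold change of -0.39 ± 0.14 (SE), but not with DESeq2's size factors or in DESeq2. Both fold changes were nearer to 0 than that of miR-212. miR-3600 and miR-2337 had no count in any library, which allows up to 0.541 CPM in the shallowest.

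Likeness of profile was taken as the Euclidean distance between log2(CPM + 1) values centred on each miRNA's own mean, over the 3 libraries and among the 167 miRNAs that averaged 100 CPM or more. With so few libraries this describes little more than the difference of B1 and the small gap within the technical pair. Nearest to miR-132 were miR-450a (distance 0.0268), miR-450b (0.0772), miR-215 (0.156), miR-146a (0.166) and miR-146b (0.238). miR-450a had 179, 192 and 73.5 CPM in T1, T2 and B1. miR-146b, which is close to miR-132 in level too, had 2174, 2461 and 777 CPM. miR-212 averaged below 100 CPM, so it was not among the 167, and its distance from miR-132 was taken separately as 0.412. That is larger than the distances of these 5, which are the nearest by choice. How many others of the 167 lie nearer to miR-132 than miR-212 does was not counted.

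Nearest to miR-212 were miR-143 (0.0615), miR-30a-5p (0.0833), miR-101 (0.0977), miR-126-3p (0.0994) and miR-135a (0.113), and none of them was on the list for miR-132. miR-143, known from smooth muscle, had 13712, 15656 and 8206 CPM, and miR-126-3p, known from endothelium, 1391, 1490 and 907 CPM. All 5 had log2 fold changes between -0.66 and -0.49, on either side of that of miR-212.

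**Figure D3:**
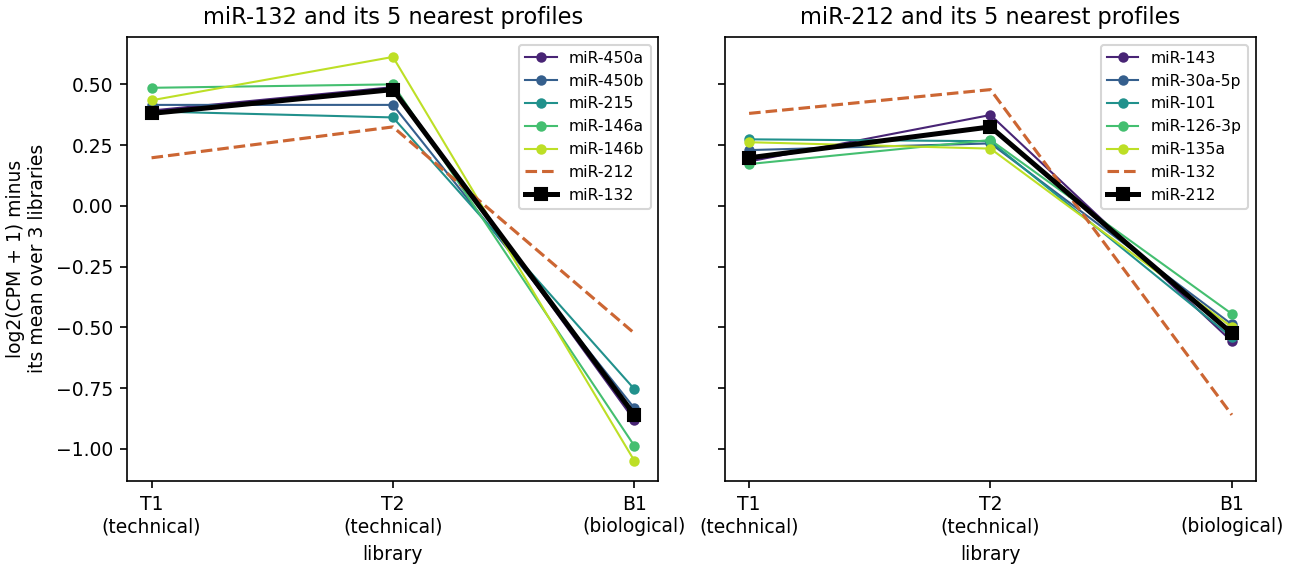
Log2(CPM + 1) minus its mean over the 3 libraries, for miR-132 (left, black) and miR-212 (right, black) with the 5 miRNAs at the smallest distance from each and the other of the pair (dashed). Lines join the points of 1 miRNA and imply no order of libraries; the dashed line of miR-212 lies 0.412 from miR-132.

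Other miRNAs linked to neuronal activity or synapses had, as a list, a median fold change near that of all miRNAs tested. The pair was picked as lower in B1, so its difference from this list is not read as a result. The list held 12 names besides the pair, found as 14 miRNAs, of which 10 had enough counts for the test (at least 10 in 1 or more libraries). Of these, 1 was called higher, 1 lower and 8 did not pass, against 37.9% called over all miRNAs. The median log2 fold change was -0.07, against 0.01 over all miRNAs tested. With the identical counts of miR-124a and miR-124b taken once, a count added after seeing the data, 9 remain with a median of -0.03. miR-485, known from homeostatic control of synapses, was called higher, with 111, 131 and 138 CPM in T1, T2 and B1 and a log2 fold change of 0.37 ± 0.12 (SE). It did not pass with library totals, with DESeq2's size factors or in DESeq2.

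miR-188, linked to synaptic plasticity, was called lower, with 35, 40 and 18 counts and a log2 fold change of -1.06 ± 0.35 (SE), but not in DESeq2. miR-134, a brain miRNA that limits dendritic spine size, and miR-138, a further regulator of spines, had log2 fold changes of 0.22 and 0.27, short of the threshold. miR-379, miR-381 and miR-329a, from the imprinted cluster that also encodes miR-134, had 0.17, -0.11 and -0.03 and did not pass. Members from 1 cluster are not independent, so the list in part describes that cluster. When miRNAs below 100 CPM were left out of the fit, miR-381 was the only one of the list called, as lower.

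miR-124a and miR-124b, names of a leading neuronal miRNA, carried identical counts of 13, 16 and 10, and miR-219 had 9, 14 and 10; none of these passed. miR-184, miR-329b and both arms of miR-219 by name were too low for the test. In every library 10 of the 14 were below miR-212, and 13 of the 14 were below miR-132, the exception being miR-379 at 15414 CPM or more.

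Neuronal markers were not lower as a group, though this list shares miR-124a, miR-124b, miR-138 and the miR-219 names with the activity-linked list. Of 14 tested, 5 were called higher, 1 lower and 8 did not pass, against 37.9% called over all miRNAs tested, with a median log2 fold change of 0.17, which was -0.02 with library totals, where 3 were called higher and 1 lower. miR-129 and miR-129-5p carried identical counts, as did the 2 names of miR-124, and with such names taken once, a count added after seeing the data, 12 remain with 5 higher, 1 lower and a median of 0.21. miR-128, a brain-enriched miRNA, had 2205, 2147 and 3147 CPM in T1, T2 and B1. It was thus below miR-132 in T1 and T2 and above it in B1. miR-383 was the member called lower, at -0.50 ± 0.11 (SE). Of the 16 neuronal miRNAs found, miR-219-3p had no count.

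Markers of vessel wall, connective tissue and leukocytes moved with the pair in part. Over all miRNAs tested, 20.2% were called lower, the share beside which the following counts stand. The endothelial miR-126-3p and miR-126-5p, arms of 1 hairpin, were both called lower, and their summed level was 1820 and 1888 CPM in T1 and T2 and 1130 CPM in B1, or 60.9% of the technical mean. In the smooth muscle and fibroblast list 5 of 6 were called lower, and miR-145, at only 14, 12 and 11 counts, did not pass. The sum of this list was 16827 and 18866 CPM in T1 and T2 and 10249 CPM in B1, or 57.4% of the technical mean. Most of it was miR-143, at 13712, 15656 and 8206 CPM, so the sum largely describes 1 miRNA. On the same list miR-145 had only 2.52, 1.92 and 1.64 CPM in T1, T2 and B1. Both arms of miR-199a by name are among the 5, so these calls are not independent. In the leukocyte list 2 of 5 tested, miR-146a and miR-142-5p, were called lower (miR-146a alone in DESeq2), and the sum was 281 and 280 CPM in T1 and T2 and 123 CPM in B1, or 43.9%. Most of that sum was miR-146a, at 202, 204 and 72.1 CPM. miR-155, the other miRNA known to rise with miR-132 in stimulated monocytes, had 26.3, 26.2 and 20.9 CPM and a log2 fold change of -0.15 ± 0.19 (SE) that did not pass.

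No marker of these 3 lists was at 0 in all libraries, and miR-223, a granulocyte miRNA, had 7, 6 and 7 counts. The erythrocyte list was mixed. Its sum of 898 and 837 CPM in T1 and T2 and 1097 CPM in B1 was nearly all miR-486, which was called higher, at 873, 816 and 1079.5 CPM. miR-451 had 23.6, 20.2 and 16.8 CPM, with a log2 fold change of -0.19 ± 0.20 (SE) that did not pass, and miR-144, too low for the test, had 0.90, 0.96 and 0.60 CPM. Of the endocrine markers miR-375 and miR-7 neither passed, though miR-375 did as higher in DESeq2 and with no count filter, and their sum was 440620, 428375 and 473000 CPM. The part of these other cell types in the lower levels of miR-132 and miR-212 was not tested.

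**Figure D4:**
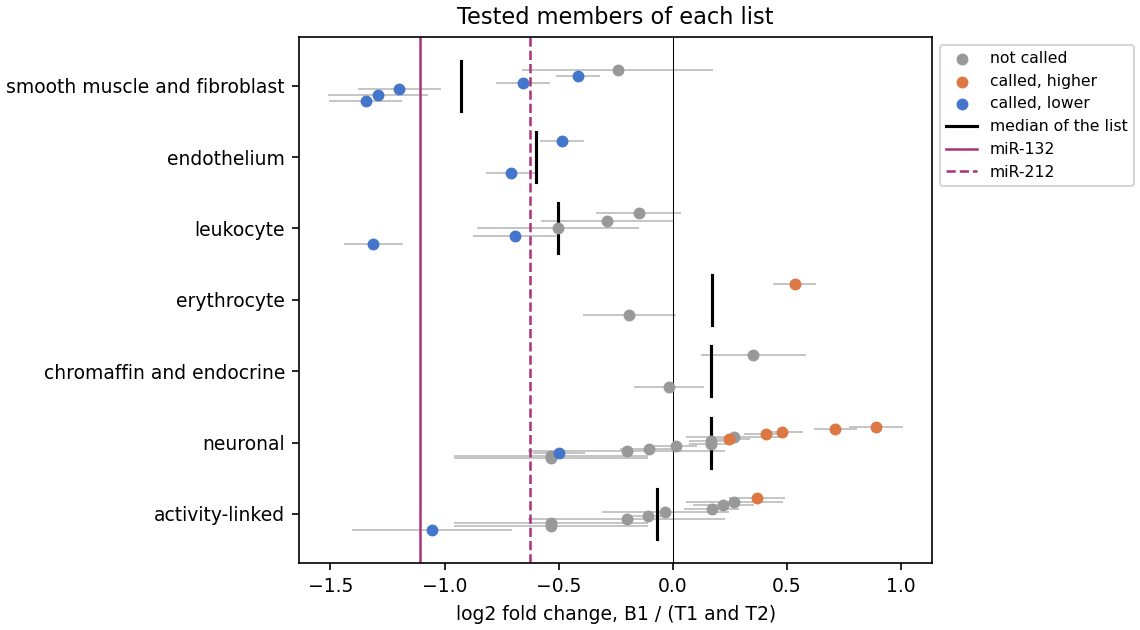
Log2 fold change of B1 over T1 and T2 (edgeR, TMM), with SE bars, for each tested miRNA of the 7 lists; black ticks are list medians and vertical lines are miR-132 (solid, -1.11) and miR-212 (dashed, -0.62). The medians of the activity-linked and neuronal lists are -0.07 and 0.17, and the smooth muscle and fibroblast median, -0.93, lies between miR-132 and miR-212.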

How the data were processed

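Small RNA libraries were prepared from vesicle RNA with an NEBNext small RNA kit, per the labels' protocols. The count table deposited by the authors holds raw read counts for 919 rows, each a mature miRNA on a hairpin. Its CPM, computed by the authors, equal the count over the column total. The authors' second table holds log2(CPM + 0.1) for the 459 rows above 1 CPM in at least 2 libraries. The submitters' processing notes name UMD3.1 and edgeR, with the aligner and the release of miRBase not given in the sources used here.

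A mature miRNA with several hairpins was taken from its highest row, and CPM were computed from the resulting totals. The 367 miRNAs that reached 10 counts in any library were fitted in edgeR 4.0.16 (R 4.3.3; TMM, quasi-likelihood, Benjamini-Hochberg adjustment), with SEs derived from the fold change and F, and the fit was tested on simulated data. No label names separate animals, and with 1 biological library the p-values rest on the spread within the technical pair alone. DESeq2 1.42.0, other scalings, filters and row sums were alternatives. Gene order came from RefSeq. The members and lists were chosen with earlier results of these data known. By rule, miRNAs named beside them were the 3 nearest in level on each side, the 5 nearest in profile, those of the nearest hairpins and the lists' members. Grouping by seed, also in that rule, was not done here.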

Additional observations from a re-analysis of the deposited data

How the results depend on the processing

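The log2 fold change of miR-132 was negative under all 10 alternatives, between -1.29 and -1.10, and that of miR-212 under all 9, between -0.81 and -0.60. They moved by more than the spread within the technical pair with library totals (-1.29 and -0.81) and in the authors' log2 values (-1.26 and -0.77). For miR-132 so did the fit of miRNAs averaging 100 CPM or more (-1.26), which leaves miR-212 out, and library totals without miR-375 (-1.18), an alternative chosen after seeing the data. Without 1 technical replicate the fold change was -1.14 or -1.10 for miR-132 and -0.67 or -0.60 for miR-212, values with no test. Levels became 3128 and 73.9 CPM when miR-375 was left out of the total, also chosen after seeing the data, and 1455 and 34.2 CPM with rows summed. Without each library in turn the ratio of miR-132 to miR-212 lay between 40.5 and 47.5, and it was 44.2 with counts pooled. DESeq2 called 86 of 367 miRNAs (23.4%) and the fit at 100 CPM or more called 70 of 167 (41.9%), against 139 of 367 (37.9%), and miR-212 was not among the calls of DESeq2. No paired analysis was possible, because there is 1 biological library and no label pairs it with either technical replicate. With 1 biological library, no test could be made without it, and counting error limits miR-212 more than miR-132.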

Other observations

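The shift in balance between miR-132 and miR-212 was set beside that of other linked miRNAs, a comparison added after seeing the data. Neighbouring hairpins were miRNA genes next to each other in RefSeq's annotation, each with at least 100 counts in every library and a mature miRNA on 1 hairpin only. In 39 other such pairs, the log2 ratio of the more to the less abundant miRNA differed between B1 and the mean of T1 and T2 by a median of 0.27 in size, with a range of 0.03 to 1.30. For miR-132 and miR-212 the size was 0.49, and 9 of the 39 pairs had a larger one. With at least 200 counts, 5 of 29 did. Between the technical replicates the ratio of miR-132 to miR-212 differed by 0.03, against a median of 0.12 over the 39 pairs. Pairs share miRNAs and many lie in the same imprinted cluster, so they are not independent.

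Examples on either side were miR-30d with miR-30b-5p, whose ratio was 56.8, 47.1 and 85.8 in T1, T2 and B1, and miR-25 with miR-93, at 12.9, 12.8 and 13.1. Both were picked after their values were seen. The 2 arms of 1 hairpin, which are cut from the same molecule, differed by a median of 0.33 in size over 13 hairpins, and 6 of the 13 differed by more than miR-132 and miR-212 did. For the arms of miR-22, on the same chromosome, the ratio of miR-22-3p to miR-22-5p was 7.49, 7.88 and 8.65.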
